A study of Bos taurus with 18 samples.

Results

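A list of 10 genes of the trophectoderm, the outer epithelium of the blastocyst, was followed by symbol through arrays of bovine embryos: the transcription regulators ASCL2, DLX4, ID2, TFAP2A, GATA3 and CDX2, the cell surface protein PLET1, and the keratins KRT8, KRT18 and KRT19. Of these 10 genes, 8 had a probe set whose only listed gene was the member, and these 8 genes had 10 probe sets among the 24016 tested. PLET1 and ID2 had 2 probe sets each, numbered here from the brighter to the dimmer. GATA3 and CDX2 were listed for no probe set and were dropped, so that the pair of factors best known for specifying the layer was not analysed here. Each array held RNA of 60 whole blastocysts pooled by sex and sire, frozen on day 7 after insemination in vitro. The groups were female blastocysts of bull 1, bull 2 and bull 3 and male blastocysts of the same bulls, with 3 arrays in each of the 6, or 9 female against 9 male arrays. All were of mixed breed and came from sex-sorted semen, and each bull is a single sire. Nothing in the labels tells whether the pools of 1 group were fertilised in separate runs, so a p-value here covers no more than the spread from pool to pool, which may be technical.

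The trophectoderm is the first cell type set aside in the mammalian embryo. It surrounds the inner cell mass, pumps fluid into the blastocoel and later forms the fetal part of the placenta. In cattle it also secretes interferon tau, the signal by which the mother recognises the pregnancy. Transcription factors of several families hold its identity, and keratins 8, 18 and 19 build the filaments of its epithelial cells. A whole blastocyst holds trophectoderm and inner cell mass together, so that fewer cells of a type and less RNA per cell cannot be told apart in these values.

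All values are log2 expression values as deposited, on which a difference of 1 is a doubling. Array medians lay between 5.33 and 5.49, and array data give no read depth, so that the number of arrays limits the precision. XIST, the RNA of the inactive X chromosome, separated the sexes as labelled, at 8.87 to 9.57 in female and 5.93 to 7.28 in male arrays. On 4 arrays (female bull 1 replicate 3, male bull 1 replicate 2, male bull 2 replicate 1 and male bull 3 replicate 3) probe sets departed from their medians more widely than on the others, with an interquartile range over 0.25 against a lowest of 0.168. The array holds probe sets for products of the trophoblast and for markers of the inner cell mass, among them SOX2 and POU5F1. Every probe set has a value on every array, and no call of presence was made. The means of these lists are given beside the results below.

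The surface protein and 2 of the transcription factors differed between the sexes, in opposite directions, while the keratins, DLX4 and ID2 did not pass the test. With limma, and with p-values adjusted by the Benjamini-Hochberg method over all probe sets at a threshold of 0.05, 4 of the 10 member probe sets were called. Both probe sets of PLET1 were higher in females, and those of ASCL2 and TFAP2A were lower in females. Over the whole array 15.6% of probe sets were called, 8.12% higher in females and 7.47% higher in males, and with 10 probe sets the members' count is no result about the group. The median absolute sex difference was 0.086 log2 over the 10 member probe sets and 0.089 log2 over all probe sets. The sex difference had the same sign in all 3 bulls for 5 of the 10 member probe sets, against 48.1% of all probe sets. Those 5 were the 4 called ones and DLX4.

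PLET1, placenta expressed transcript 1, is a membrane-anchored glycoprotein of trophoblast and epithelia, described best in mouse. Its brighter probe set stood at 7.26, 6.53 and 7.32 in the females of bull 1, against 5.68, 5.62 and 4.84 in the males of that bull. For bull 2 it stood at 6.65, 6.23 and 6.80 in females and at 4.85, 4.78 and 5.59 in males. For bull 3 it stood at 6.30, 6.15 and 6.65 in females and at 5.58, 5.20 and 4.57 in males. Every female array lay above every male array, with the lowest female at 6.15 and the highest male at 5.68. PLET1 was the only member whose sexes did not overlap, as 2.92% of all probe sets did not. The mean was 6.66 ± 0.42 over female arrays, against 5.19 ± 0.44 over male arrays (SD, n = 9 each), giving a difference of 1.47 ± 0.16 log2 (SE), or 2.76-fold, with a 95% interval from 2.18 to 3.51-fold (limma, adjusted p = 4.3e-06). Sex accounted for 76.6% of the variation of this probe set over the 18 arrays, the bulls for 5.96%, and the spread within groups for 16.4%.

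The dimmer PLET1 probe set gave a smaller difference of the same direction. It lay between 3.27 and 4.41 in females, with a median of 3.54, and between 2.92 and 3.47 in males, with a median of 3.23. Here the sexes overlapped, since 3 female arrays lay below the highest male. The difference was 0.45 ± 0.11 log2, or 1.37-fold (adjusted p = 0.00608). The part of its low signal in the smaller difference was not tested. Over the 18 arrays the values of the 2 probe sets had a Pearson's r of 0.77, and deviations from the group means had an r of 0.43, given as a description without a test.

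**Figure D1:**
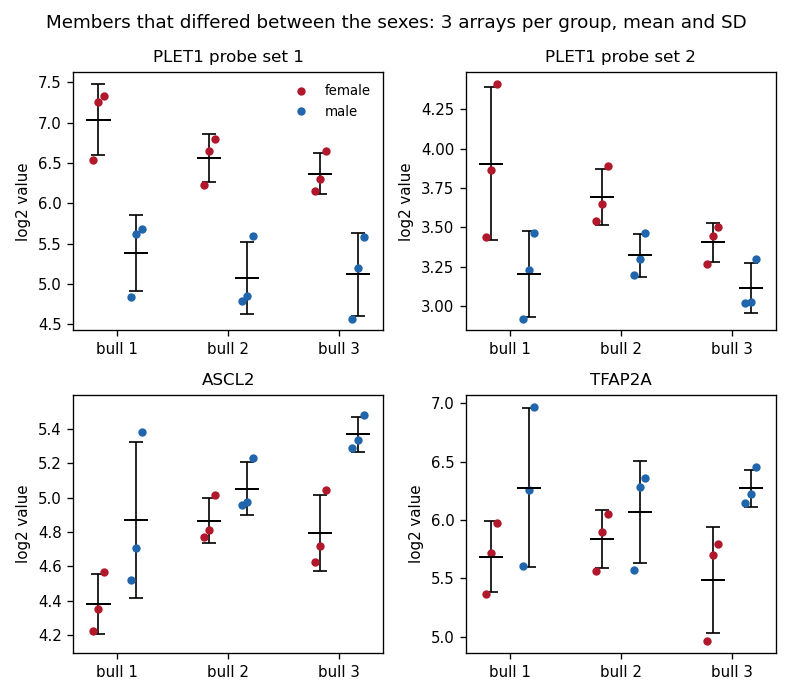
Log2 values of the 4 probe sets that differed between the sexes, by bull, with each array as a point (females red and left, males blue and right), the group mean as a bar and the SD of 3 arrays as whiskers. The brighter PLET1 probe set has every female array at 6.15 or above and every male array at 5.68 or below, whereas the sexes overlap for the other 3 probe sets.

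Within single bulls PLET1 kept its direction. The brighter probe set had sex differences of 1.66 log2 in bull 1, 1.49 in bull 2 and 1.25 in bull 3, each with an SE of 0.28 (adjusted p = 0.00189, 0.0046 and 0.0153). For bull 3 the call was lost without female replicate 3 of that bull (1.11 log2, adjusted p = 0.0907), without male replicate 3 (0.98 log2, adjusted p = 0.0808) and without the 4 arrays of wide spread (adjusted p = 0.0698). The dimmer probe set passed only in bull 1, by 0.70 log2 (adjusted p = 0.0391), against 0.37 log2 in bull 2 and 0.29 log2 in bull 3, which did not pass. That call was lost in 7 of 18 fits without 1 array (adjusted p = 0.0503 to 0.187). Without female bull 1 replicate 1, whose 4.41 was the highest value of that probe set, the difference in bull 1 was 0.45 log2, the lowest of these. Within bulls, 2, 1 and 1 of the 10 member probe sets were called in bulls 1, 2 and 3, all of PLET1, against 4.2%, 3.13% and 4.18% of all probe sets. These counts were 4, 1 and 0 without the 4 arrays of wide spread, where ASCL2 (fell by 0.75 log2, adjusted p = 0.0401) and TFAP2A (fell by 1.07 log2, adjusted p = 0.0408) were also called in bull 1.

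ASCL2, also called MASH2, is a basic helix-loop-helix factor that in mouse is needed for the spongiotrophoblast of the placenta and is expressed from the maternal allele. It was lower in females than in males. In the females it stood at 4.35, 4.22 and 4.57 for bull 1, at 5.02, 4.81 and 4.77 for bull 2, and at 5.04, 4.72 and 4.62 for bull 3. In the males it stood at 4.70, 4.52 and 5.38 for bull 1, at 5.23, 4.95 and 4.97 for bull 2, and at 5.48, 5.29 and 5.33 for bull 3. The sexes overlapped, with 4 male arrays, of bulls 1 and 2, below the highest female at 5.04. The means were 4.68 ± 0.27 in females and 5.10 ± 0.33 in males (SD, n = 9), a difference of -0.42 ± 0.10 log2 (adjusted p = 0.0067), which makes it 1.33-fold higher in males.

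The ASCL2 difference was -0.49, -0.19 and -0.57 log2 in bulls 1, 2 and 3, none of which passed within its bull (adjusted p = 0.137, 0.727 and 0.0711). Without bull 3 the difference was -0.34 log2 and did not pass (adjusted p = 0.129). Its probe set lies in the dimmer part of the array, below the median over all probe sets. Sex accounted for 34.6% of its variation and the bulls for 29.8%, the largest share of the bulls among the 10 member probe sets.

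TFAP2A, the AP-2 alpha transcription factor, belongs to a family that acts in trophoblast and in skin. It was lower in females, at 5.67 ± 0.34 against 6.21 ± 0.43 in males (SD, n = 9). Females ran from 4.96 to 6.05 with a median of 5.71, and males from 5.57 to 6.97 with a median of 6.26. The sexes overlapped, with 2 male arrays below the highest female. The difference was -0.54 ± 0.16 log2, or 1.45-fold higher in males (adjusted p = 0.0319), with -0.59, -0.23 and -0.79 log2 in bulls 1, 2 and 3. The call was lost in 7 of 18 fits without 1 array (adjusted p = 0.0568 to 0.0749), without bull 1 (0.0659), without bull 3 (0.26) and without moderation of the variance (0.0951). The 7 arrays are female bull 1 replicate 2, female bull 2 replicate 2, female bull 3 replicate 3, male bull 1 replicate 3, male bull 2 replicates 2 and 3, and male bull 3 replicate 3. Without the 4 arrays of wide spread the difference was -0.75 log2 (adjusted p = 0.00244).

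Markers of other cells were set beside these differences, with 15.6% of all probe sets called between the sexes. Of 5 measured inner cell mass markers, STAT3 (0.28 log2) and SPP1 (0.56 log2) were higher in females and none was called lower, and the list's mean value ran from 9.45 to 9.70 in female and from 9.24 to 9.50 in male arrays. SOX2 and POU5F1, of the same list, differed by -0.10 and 0.00 log2 and did not pass. Of 9 markers of the primitive endoderm, RBP4 was higher (0.92 log2) and GATA4 lower in females (-0.22, and adjusted p = 0.148 without the 4 arrays of wide spread), with list means of 6.88 to 7.09 in females and 6.80 to 7.04 in males. Of 14 markers of cumulus and stromal cells, CYP19A1 (0.56 log2), COL1A1 (0.19) and DCN (0.33) were higher and COL1A2 (-0.26) lower in females. The means of that list ran from 5.12 to 5.74 in females and from 4.99 to 5.73 in males. A value on this scale is no call of presence, and the part of other cells in the members' differences was not tested.

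**Figure D2:**
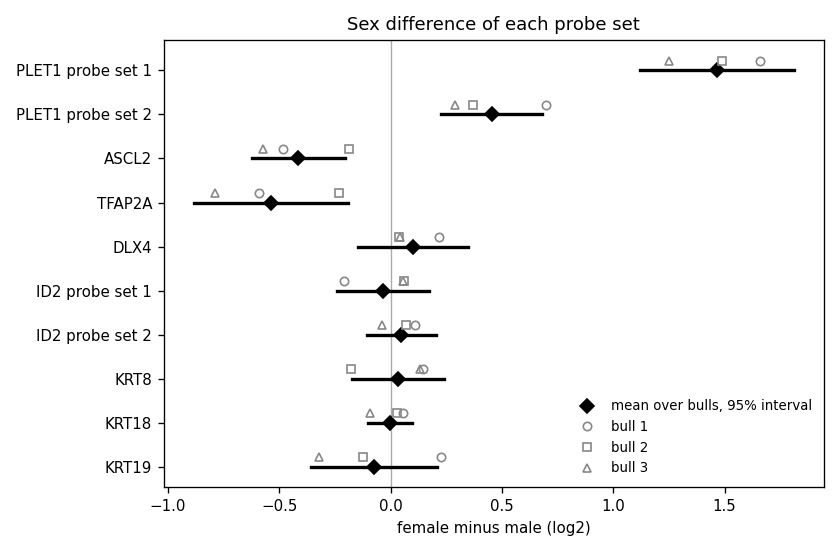
Female minus male difference in log2 of each of the 10 probe sets, with diamonds for the mean over bulls, lines for its 95% interval, and open symbols for single bulls. The intervals of PLET1, ASCL2 and TFAP2A leave out 0, and those of DLX4, ID2, KRT8, KRT18 and KRT19 include it.

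DLX4, a distal-less homeobox factor of placental tissue, did not pass the test. It ran from 7.69 to 8.40 in females with a median of 8.23, and from 7.21 to 8.34 in males with a median of 8.18. The means were 8.15 ± 0.21 and 8.05 ± 0.35 in females and males, and the interval of the difference ran from -0.15 to 0.35 log2 (adjusted p = 0.658). Male bull 1 replicate 2, one of the arrays of wide spread, held the lowest value. A related factor, DLX3, was higher in females, at 4.98 ± 0.29 against 4.65 ± 0.22 (0.33 log2, adjusted p = 0.0359).

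ID2, an inhibitor that binds basic helix-loop-helix factors and keeps them from DNA, is among the early trophectoderm genes of the mouse. Its brighter probe set averaged 7.31 ± 0.17 in females and 7.34 ± 0.29 in males, and the interval of the difference ran from -0.24 to 0.17 log2 (adjusted p = 0.877). Its range was 7.04 to 7.67 in females and 6.95 to 7.97 in males, with the highest male, bull 1 replicate 3, far above the next at 7.42. The dimmer probe set averaged 4.51 ± 0.19 in females and 4.47 ± 0.14 in males (adjusted p = 0.746). The 2 probe sets did not follow each other over the 18 arrays. Pearson's r was -0.13 for the values and -0.19 for deviations from the group means, again a description.

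The keratins showed no difference that passed. KRT18, an acidic keratin, stood at 14.04 ± 0.06 in females and 14.04 ± 0.07 in males (SD, n = 9), from 13.94 to 14.12 and from 13.92 to 14.13. The interval of its difference, from -0.10 to 0.10 log2, was the narrowest of the members. This probe set was within 0.156 log2 of the brightest on every array, with at most 2 probe sets above it, and its SD within groups was 0.06 log2 against a median of 0.16 over all probe sets. Probe signals can saturate at the top of the range, and the part of saturation in this narrow spread was not tested.

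KRT8, the basic keratin that pairs with KRT18 in one filament, averaged 5.79 ± 0.19 in females and 5.75 ± 0.31 in males, with an interval from -0.17 to 0.24 log2 (adjusted p = 0.875). Females ran from 5.48 to 6.01 with a median of 5.86, and males from 5.46 to 6.51 with a median of 5.71. The male value of 6.51 came from bull 2 replicate 1, and the other 8 males lay at 5.85 or below. Both KRT8 means lay little above the array medians of 5.33 to 5.49. The part of this low signal in the lack of a called difference was not tested. KRT19, a small acidic keratin of simple epithelia, averaged 10.25 ± 0.30 in females and 10.32 ± 0.34 in males, with an interval from -0.36 to 0.21 log2 (adjusted p = 0.786). It differed by 0.23 log2 in bull 1, -0.12 in bull 2 and -0.32 in bull 3, and none passed. Each keratin's range in females overlapped its range in males.

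**Figure D3:**
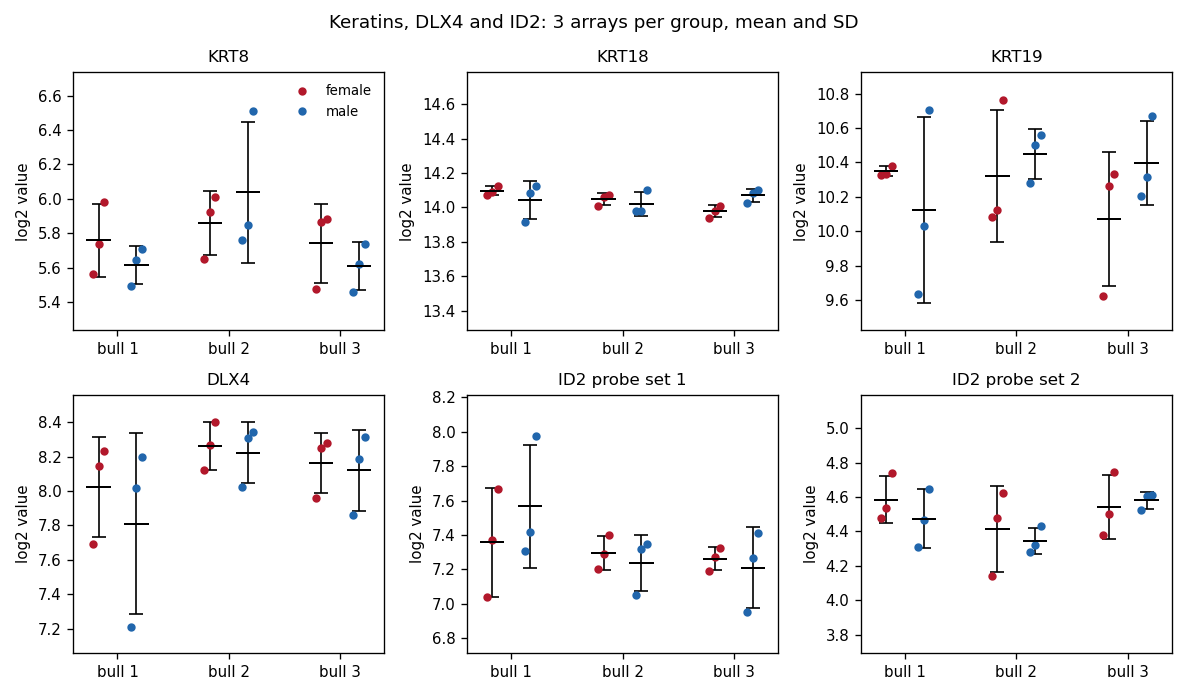
Log2 values of the keratins, DLX4 and ID2 by bull, each array a point (females red and left, males blue and right), with the group mean and the SD of 3 arrays; each panel spans at least 1.5 log2. KRT18 varies between 13.92 and 14.13, while KRT19 and DLX4 spread more widely within groups, lowest in male bull 1 replicate 2 for DLX4 at 7.21.

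The order of the 6 groups was followed for each member. For the brighter PLET1 probe set the order ran from females of bull 1 (7.04 ± 0.44, SD, n = 3) through females of bull 2 (6.56 ± 0.30) and of bull 3 (6.37 ± 0.26) to males of bull 1 (5.38 ± 0.47), of bull 3 (5.12 ± 0.51) and of bull 2 (5.07 ± 0.45). Of these 5 neighbouring pairs of groups, 1 did not overlap, that between females of bull 3 and males of bull 1. For the dimmer PLET1 probe set the 3 female groups also stood above the 3 male groups, but the pair that did not overlap was that of females of bull 2 (3.69 ± 0.18) and females of bull 3 (3.41 ± 0.12). Females of bull 3 overlapped males of bull 2 (3.32 ± 0.13), the highest male group there. For ASCL2 males of bull 3 stood highest (5.37 ± 0.10) and females of bull 1 lowest (4.38 ± 0.17), and each was apart from its neighbour. The 4 groups between, with means from 4.79 to 5.05, overlapped their neighbours. For TFAP2A the 3 male groups stood above the 3 female groups, and every neighbouring pair overlapped. For DLX4, KRT8, KRT18, KRT19 and both ID2 probe sets every neighbouring pair overlapped, and the group means spanned from 0.12 log2 for KRT18 to 0.45 log2 for DLX4. How often such neighbouring groups stand apart over all probe sets was not counted, so these gaps describe the values and are no result about the members.

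Among bulls, 1 of the 10 member probe sets passed. ASCL2 was higher in bull 3 than in bull 1 by 0.46 ± 0.12 log2 (adjusted p = 0.0452), with means of 5.08 ± 0.35 in bull 3 and 4.63 ± 0.41 in bull 1 (SD, n = 6). That call was lost in 14 of 18 fits without 1 array, at 0.37 to 0.50 log2, and without the 4 arrays of wide spread (0.42 log2, adjusted p = 0.0997). ASCL2 stood at 4.96 ± 0.16 in bull 2, and its difference of bull 2 minus bull 1, 0.33 log2, did not pass (adjusted p = 0.166). Without male bull 1 replicate 3 that difference was 0.46 log2 and passed (adjusted p = 0.019). Over all probe sets 3.53% were called between bulls 3 and 1, 1.52% between bulls 2 and 1, and 3.74% between bulls 3 and 2, and in these last pairs no member was called. At an unadjusted p under 0.05, 3 member probe sets differed between bulls 3 and 1 and 3 between bulls 2 and 1. Between bulls 3 and 2, 1 did. Of all 24016 probe sets, 4579, 4277 and 4431 differed at that threshold in the same pairs, in this order. With 10 member probe sets these counts are no result about the group. A bull cannot be told apart from a production or scan batch of its arrays. The 5′ minus 3′ signal of control transcripts ran from -1.27 to -0.36 on arrays of bull 3. On those of bull 1 it ran from -0.44 to 0.45, and its part in the bull differences was not tested.

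No member had a sex difference that was called as differing between bulls. The F test of the interaction in limma called 0 of 10 member probe sets and 0% of all, with 0 members and 656 probe sets in all at an unadjusted p under 0.05. The lowest unadjusted p among members was 0.267, for KRT19.

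The pools of a group also varied among themselves, and on some arrays several members deviated in the same direction. Male bull 1 replicate 3 lay above the mean of its group by 0.69 log2 for TFAP2A, 0.58 for KRT19, 0.51 for ASCL2, 0.41 for ID2 and 0.39 for DLX4, and below it for PLET1 (-0.54). Male bull 1 replicate 2, an array of wide spread, lay below that mean for the same 5 genes, by -0.67 for TFAP2A, -0.49 for KRT19, -0.35 for ASCL2, -0.26 for ID2 and -0.60 for DLX4. Female bull 3 replicate 3 was low for TFAP2A (-0.53) and KRT19 (-0.45) and high for PLET1 (0.29).

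Deviations from the group means were correlated as a description, on the brightest probe set of each gene over 18 arrays that share preparation and signal scale. Among ASCL2, DLX4, KRT18, KRT19, ID2 and TFAP2A, 6 genes singled out after their values were seen, all 15 pairs had an r above 0, from 0.31 to 0.82 with a median of 0.63. The highest was that of ASCL2 with KRT19. Because the 6 genes were grouped with these values known, the shared sign follows at least in part from that choice. How often pairs over all probe sets have an r above 0 was not counted, so these values are no result about the members. ID2 entered through its brighter probe set only, whose deviations had an r of -0.19 with those of the dimmer probe set. Without the 4 arrays of wide spread, which do not include male bull 1 replicate 3, the 15 pairs ran from 0.24 to 0.87. After quantile normalization they ran from 0.25 to 0.84, with lower values for pairs with KRT18, such as 0.25 in place of 0.67 with KRT19, 0.35 in place of 0.71 with DLX4 and 0.37 in place of 0.62 with ID2. The 13 pairs that include KRT8 or PLET1 ran from -0.38 to 0.27 with a median of -0.19, from -0.76 to 0.00 without those arrays and from -0.31 to 0.36 after quantile normalization. The part of array quality, of cell numbers and of RNA amount in this joint variation was not tested.

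KRT8 and KRT18, partners in the filament, were the pair chosen for a test. Their deviations had a Pearson's r of -0.11 (exact permutation over all orders within groups, two-sided, p = 0.775) and a Spearman's rho of -0.15 (exact permutation p = 0.615) over 18 arrays. Without the 2 arrays farthest from the median of KRT8, male bull 2 replicates 1 and 2, r was 0.21. No relation between the partners was detectable, with KRT18 near the top of the signal range and the KRT8 means little above the array medians. The part of these signal levels in the result was not tested.

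**Figure D4:**
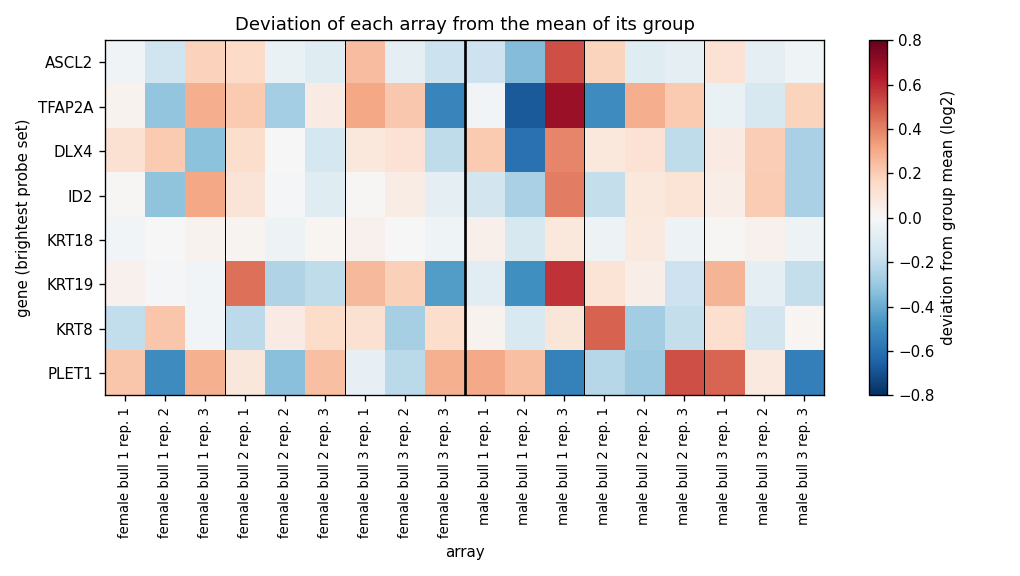
Deviation of each array from the mean of its group in log2, for the brightest probe set of each of 8 genes (rows) on 18 arrays (columns, females left of males), red above and blue below the mean. Male bull 1 replicate 3 is above its mean for TFAP2A (0.69), KRT19 (0.58) and ASCL2 (0.51), and male bull 1 replicate 2 below it (-0.67, -0.49 and -0.35).

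Genes whose pattern over the 6 groups was most like that of PLET1 and of ASCL2 were sought by the root mean square difference of centred group means. Candidates were named genes, provisional ones left out, whose group means spanned at least 50% of the member's span, which left 250 for PLET1 and 1683 for ASCL2. Nearest to PLET1 among these were BEX4 (0.12 log2) and SAT1 (0.13), both X-linked, and RESP18 (0.17), an autosomal gene like PLET1. They were higher in females by 1.59, 1.45 and 1.26 log2. Nearest to ASCL2 among its candidates were SLC28A3 (0.07 log2), a nucleoside transporter, ST6GALNAC2 (0.09), a sialyltransferase, and MYO19 (0.10), a myosin of mitochondria. All 3 were lower in females, with differences of females minus males of -0.35, -0.56 and -0.32 log2. The genes near PLET1 and ASCL2 were ranked by these same group means, so the shared direction follows from how they were chosen.

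Other genes around the members were counted on the brightest probe set of each, beside the 15.6% called over the array. Of 15 other trophoblast transcription factors, JUNB (0.29 log2, adjusted p = 0.00603), CITED2 (0.24) and DLX3 were higher in females and RXRA (-0.22) was lower. The list's median difference was 0.03 log2, against -0.03 log2 over all probe sets. Among the 11 that did not pass were HAND1 (0.03 log2), ELF5 (0.13), ETS2 (0.01), GCM1 (-0.10) and KLF5 (-0.07). DLX3 lost its call without the 4 arrays of wide spread (adjusted p = 0.0529).

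The Hippo pathway, whose kinases keep the cofactor YAP from TEAD factors in the inner cells of the mouse embryo, had 10 measured genes. YAP itself was not among these 10, out of 24 listed, and its activity was not measured. CCN2, a common target of YAP, stood at 10.85 ± 0.13 in females and 10.36 ± 0.16 in males (SD, n = 9), a difference of 0.50 log2 or 1.41-fold (adjusted p = 2.19e-05), with 0.49, 0.46 and 0.53 log2 in bulls 1, 2 and 3. CCN1, another such target, was higher in females by 0.35 log2 (adjusted p = 0.0113), and the scaffold SAV1 by 0.20 (adjusted p = 0.0153). ANKRD1, of the same list, differed by -0.02 log2 and did not pass (adjusted p = 0.926). None of the 10 was called lower in females, and TEAD4, the factor upstream of CDX2 in mouse, differed by -0.08 log2 and did not pass.

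Of 11 genes of ID proteins, their E protein partners and BMP signalling, which induces ID genes, BMP2 (0.37 log2) and BMP7 (0.30), both ligands, were higher in females, and their receptor BMPR1A (-0.33, adjusted p = 0.00164) was lower. ID1 and ID3 differed by 0.04 and 0.27 log2 and did not pass.

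Of 19 other keratins and filament linkers, KRT10 was higher in females, at 7.82 ± 0.22 against 7.40 ± 0.27 (1.34-fold, adjusted p = 0.000587), and the desmosome protein PKP3 was lower (-0.20 log2, adjusted p = 0.0472). KRT14 (0.26, adjusted p = 0.0555) and JUP (0.13) did not pass, nor did KRT7, at 0.03 log2. The median difference of these 19 genes was -0.04 log2.

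Of 8 products of the trophoblast, SSLP1 (0.75 log2), TKDP1 (0.51) and IFNT2 (0.59) were higher in females and PAG11 (-0.48) and PAG2 (-0.68) lower. The list's mean value ran from 6.03 to 6.49 in female and from 5.93 to 6.34 in male arrays. IFNT2, PAG2, PAG11 and TKDP1 belong to families of similar genes whose probe sets may not tell copies apart. Among genes named in these lists and markers of other cells, CCN2, BMPR1A, SSLP1, TKDP1, IFNT2, RBP4 and CYP19A1 stayed called without any 1 bull. JUNB, CITED2, DLX3, RXRA, CCN1, SAV1, BMP2, BMP7, KRT10, PKP3, PAG11, PAG2, STAT3, SPP1 and GATA4 lost their calls without at least 1 bull (adjusted p = 0.0626 to 0.327). COL1A1, COL1A2 and DCN also lost theirs (adjusted p = 0.0634 to 0.267).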

How the data were processed

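Each of 18 pools gave 50 ng of total RNA for linear amplification and 1 Affymetrix bovine array, per the labels. The authors deposited log2 expression values per probe set. RMA and Partek 6.4 are named in the submitters' processing notes without their roles, and the values themselves show the log2 scale. Array controls (112) were left out and 24016 probe sets were tested, of which 13292 have 1 listed gene, 86 several and 10638 none. Gene symbols were brought up to date with a gene table of ARS-UCD2.0 (13263 matched, 29 did not).

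Means of the 6 groups were estimated for every probe set in limma 3.58.1 under R 4.3.3 (lmFit, eBayes, 12 residual degrees of freedom), and p-values were adjusted by Benjamini-Hochberg over all probe sets. Intervals are at 95% and a fold change is the log2 difference turned to a linear ratio. All members with a probe set were named, and of each other list up to 4 genes of smallest p plus those named as not passing, which were picked for their roles. PAG2, at rank 5 by p among the trophoblast products, was called and was named as well. The search for similar patterns could not be made for CDX2. Members and lists were chosen with earlier results of these data known. The fits were tested on simulated data. Sample numbers are shared between the sexes of a bull, but only 2 of 9 same-numbered pairs had deviations correlated above 0.1, so the numbers were not treated as pairs. Alternatives were those described in the closing section.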

Additional observations from a re-analysis of the deposited data

Results flagged for a closer look

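In each sex of 9 arrays, the highest and the lowest value of each of the 10 member probe sets were compared with the nearest other value, in 20 groups of arrays. About 1 in 20 groups shows such a gap by chance. DLX4 had its lowest male value, 7.21, in bull 1 replicate 2, against 7.86 for the nearest male. KRT8 had its highest male value, 6.51, in bull 2 replicate 1, against 5.85 for the nearest. The brighter ID2 probe set had its highest male value, 7.97, in bull 1 replicate 3, against 7.42 for the nearest. The DLX4 and KRT8 values are on arrays of wide spread and the ID2 value is not. No call of these genes depended on them.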

How the results depend on the processing

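The PLET1 difference kept its direction and its call over all bulls in every alternative run, at 1.24 to 1.57 log2 for the brighter and 0.33 to 0.54 log2 for the dimmer probe set (which the filter on dim probe sets and 1 probe set per gene leave out). ASCL2 lost its call only without bull 3 (-0.34 log2) and was left out by the filter, and TFAP2A lost it without bull 1 (-0.51), without bull 3 (-0.41), without moderation and in 7 fits without 1 array. No direction of a called sex difference turned. Probe sets higher in females numbered 2, but 1 with the brighter 50% of probe sets and 1 with 1 probe set per gene, since fewer are tested, and 2 without any 1 array. Those higher in males numbered 2, but 1 without moderation, 1 with the brighter 50%, 1 without bull 1, 0 without bull 3, and 1 to 2 without 1 array. Within bull 1, 2 were called, but 1 with the brighter 50%, 4 with array weights, 4 without the 4 arrays of wide spread and 1 to 3 without 1 array. Within bull 3, 1 was called, but 3 with array weights, 0 without those 4 arrays and 0 to 2 without 1 array, and within bull 2 it was 1 throughout. Between bulls 3 and 1, 1 was called, but 0 with the brighter 50%, 0 without those 4 arrays and 0 to 1 without 1 array, and between bulls 2 and 1 none, but 0 to 1 without 1 array. The cause was not tested, apart from fewer probe sets or arrays. With all probe sets of each gene, 2 cumulus and stromal probe sets were higher in males in place of 1. Without the 4 arrays, 2 genes of the ID and BMP list were higher in males in place of 1, 2 other keratins and linkers were higher in females in place of 1, and 0 primitive endoderm markers were higher in males in place of 1. The r of KRT8 with KRT18 lay between -0.17 and 0.02 in 3 alternatives and did not pass, but without the 2 arrays farthest from the median of KRT8 it was 0.63 after quantile normalization and -0.24 without the 4 arrays. With bull and sample number as a replicate block, 2 probe sets were called toward females and 2 toward males, and 5 of 18 arrays correlated best with their own number in the other sex. The block, the additive model, array weights, the repeated quantile normalization, the intensity trend and a covariate for the 5′ minus 3′ signal of control transcripts changed none of the 4 calls. Leaving out the 4 arrays and the covariate were chosen after seeing the data.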
